A study of Mus musculus with 661 samples.

Results

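The proteins of the cytosolic ribosome are encoded by a large gene family that growing cells transcribe at high levels. They assemble with ribosomal RNA in the nucleolus into a large subunit, which joins amino acids, and a small subunit, which decodes the messenger RNA, and their own messenger RNAs start with a stretch of pyrimidines through which growth signals control their translation. In people, loss of a single copy of any of several of these genes causes an inherited failure of red cell production in the marrow. The set described here holds each symbol of the count table made of Rpl or Rps and a number, together with the stalk genes Rplp0, Rplp1 and Rplp2 and with Rpsa, and leaves out symbols with the pseudogene ending -ps and the Rps6k kinases. These are 88 of 45771 nuclear genes, 51 for the large and 37 for the small subunit. In the annotation 83 are protein coding and 4 are pseudogenes (Rps12l1, Rps3a2, Rps3a3 and Rps4l), while Rps12l2 has no entry.

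The cells come from wild-type C57BL/6 mice of both sexes, young at about 8 weeks or old at about 24 months, with no treatment named, and were sorted into 6 populations at each age. From the endosteum come stromal cells with Sca-1 and CD51 and without CD31 (MSC-S), osteoprogenitors with PDGFRa (mOPr) or without PDGFRa (OPr), and arteriolar endothelial cells with CD31 and high Sca-1 (AEC). From the central marrow come stromal cells with LepR (MSC-L) and sinusoidal endothelial cells with CD31, low Sca-1 and high CD105 (SEC). The study used 3 young and 4 old mice, but the labels do not name the mouse of a cell, so the cells of a population at an age are 1 sample, no replicates can be formed, and no difference below was tested. The 661 cells (336 young, 325 old) hold 57517 to 1488549 nuclear gene counts each, with a median of 416359. Levels are counts per 1000000 nuclear gene counts (CPM) or percent of nuclear gene counts, summed over the cells of a group, and 95% intervals cover the counting error only.

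By its sum, each marker list is highest in the young population that it is named for, with overlap among the mesenchymal populations. The 7 MSC-L markers sum to 59226 CPM in young MSC-L, led by Cxcl12, and to 675 CPM in young MSC-S, where the 7 MSC-S markers sum to 22498 CPM, led by Fn1. The 10 osteoprogenitor markers sum to 28805 CPM in young OPr, led by the cartilage collagen gene Col2a1. They sum to 12482 CPM in young mOPr, led by Col1a1, and to 11580 CPM in young MSC-L, led by Ibsp. Col2a1 alone makes 23589 CPM in young OPr, so the place of OPr as the highest rests on that gene. Col1a1 makes 5909 CPM in young mOPr and Ibsp 8012 CPM in young MSC-L. Young mOPr and OPr also hold 7800.1 and 7605 CPM of the MSC-S markers, of which Fn1 alone makes 7212 and 7489, and all 7 are lower in young OPr than in young MSC-S by a fold of 1.5 or more, with Clec3b at 0. In endothelium the 8 AEC markers sum to 2916 CPM in young AEC and 315 CPM in young SEC, and the 8 SEC markers to 2867 and 20949 CPM. Old osteoprogenitors differ from this picture. The MSC-L markers sum to 6041 CPM in young and 23449 CPM in old OPr, and to 1039 CPM in young and 21803 CPM in old mOPr, with none of the 7 at 0. The osteoprogenitor markers sum to 4359 CPM in old OPr, led by Spp1. By the fold, 5 of 9 compared are lower, against 23.8% of all features, and 2 are higher, against 37.7%. Col2a1 (-5.53) and Col1a1 (-3.62) are lowest. In old mOPr the osteoprogenitor markers sum to 13490 CPM, with a median log2 ratio, old over young, of 0.47. By the fold, 4 of 9 compared are higher, against 35.4% of all features, and 3 are lower, against 26.9%. The MSC-S markers sum to 1551 CPM in old OPr, led by Fn1, with a median log2 ratio of 1.04. Of 5 compared, 3 are higher and 2 lower by the fold, against 37.7 and 23.8% of all features. The 20 hematopoietic markers sum to 156 CPM in young and 13161 CPM in old OPr, led by the neutrophil gene S100a9, with the lymphoid genes Cd79a, Ms4a1 and Cd3e at 0. At least 7 of the 20 reach 10 CPM in 12 cells, of which 9 are old OPr and 3 old SEC, although the sort took cells without Ter119 and CD45. In MSC-L these markers sum to 56.9 CPM in young cells, with 6 of 20 at 0, and to 399.96 CPM in old cells, led by Plek.

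Over all cells the 88 genes hold 1666517 counts, 0.544% of nuclear gene counts. A cell shows counts for 5 to 80 of them, with a median of 59. The counts are concentrated in a few members: the 4 with most counts hold 46.5% of all member counts and the 10 with most hold 64.2%, whereas 58 members reach 10 CPM and 5 stay under 1 CPM.

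Levels of different genes are compared per kilobase of exon. Rpl8, a core protein next to the site of peptide bond formation, has 370 CPM per kilobase, and Rpl4, which lines the tunnel through which the nascent chain leaves, has 352. Their genes lie at chr15:76904078-76906314 and chr9:64173375-64178666 on the plus strand of GRCm38. The stalk proteins that recruit elongation factors are also high, Rplp1 with 174 and Rplp0 with 148 CPM per kilobase. At the other end stand Rps25 with 1.14, the pseudogene Rps3a2 with 0.128, Rpl10l with 0.112, the pseudogene Rps12l1 with 0.0164 and Rpl3l with 0.00398 CPM per kilobase. Rpl10l, an autosomal copy of X-linked Rpl10 used in male germ cells, has 35 counts in 6 cells, and Rpl3l, the striated muscle relative of Rpl3, has 2 counts in 2 cells. Rps25 differs from these in being widely detected, with counts in 50.4% of cells.

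The order of levels has to be read with the alignment in view, because reads with more than 1 location were dropped and these genes have many processed copies. The share of 50-base windows of the principal transcript that also occur in another annotated gene has a median of 53.3% over the members, and 84 members share a window with an annotated pseudogene. Rpl8 shares 7.86% of its windows, Rpl4 16.5%, Rplp0 41.8% and Rplp1 60%. Across 87 members the rank correlation of CPM per kilobase with the shared percent is -0.40. The 13 members with at most 20% of windows shared have a median of 25.2 CPM per kilobase and hold 52.2% of member counts, whereas the 20 members with at least 80% shared have a median of 4.88 and hold 5.41%. The pseudogene entries named after members, 257 in number, hold 207234 counts, equal to 12.4% of the member counts, and for 13 members these entries hold more counts than the gene itself. A low level of a member with many shared windows can reflect reads that were dropped, and the part of this in the order of levels was not tested.

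**Figure D1:**
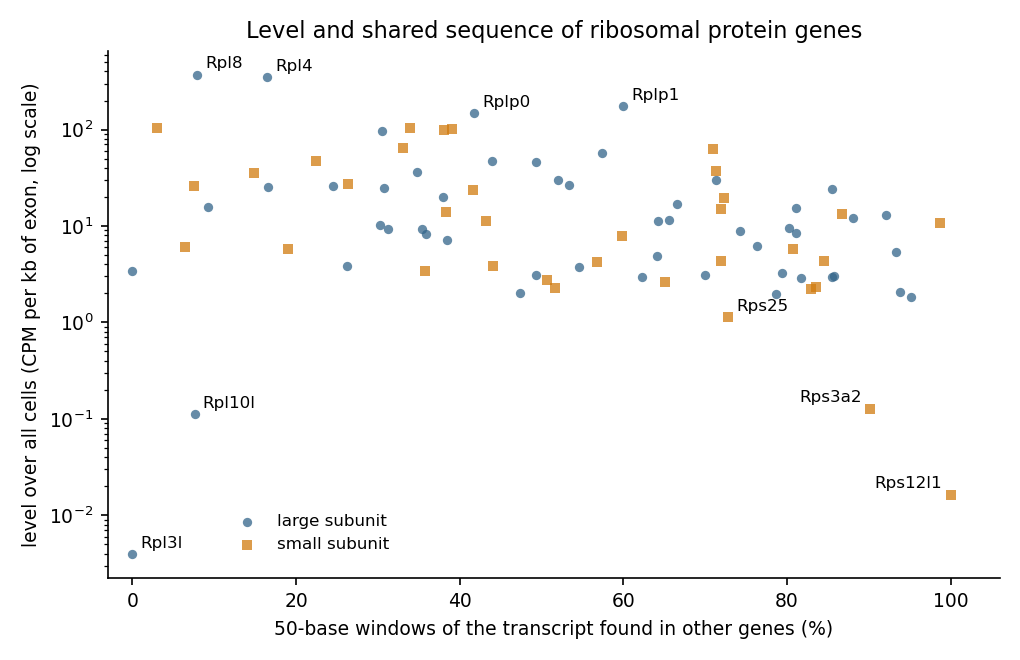
Levels of members over all cells, in CPM per kilobase of exon on a log scale, against the percent of 50-base windows of its principal transcript found in another annotated gene. Each point is a gene, and not every member is shown.

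Paralogs within the family differ in how they are used. Rpl22, a large-subunit protein needed for T cell development, and Rpl22l1, whose messenger RNA the Rpl22 protein is known to repress, have 26.1 and 11.5 CPM per kilobase over all cells. Rpl22 is lowest among the young groups in MSC-L at 42.6 CPM (39.9 to 45.3) and highest in SEC at 139 CPM (134 to 144). Rpl22l1 has its highest young level in MSC-L, 39.7 CPM (37.2 to 42.4), and its lowest in MSC-S, 7.15 CPM (6.28 to 8.10). Over young MSC-L cells Rpl22l1 runs from 0 to 582 CPM with a median of 5.52, and over young MSC-S cells from 0 to 42.5 CPM with a median of 3.93. The groups overlap, and in MSC-L a few cells carry most of the counts: the highest of the 53 cells holds 34.3% of them.

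Rps27l, a relative of Rps27 that p53 induces, has 47.7 CPM per kilobase and 22.4% of its windows shared, and Rps27 has 10.7 CPM per kilobase with 98.6% shared, so their order cannot be read as abundance. Rpl7l1, a relative of Rpl7, has 15.8 CPM per kilobase beside 26.3 for Rpl7 and is highest among the young groups in MSC-L, 79.98 CPM (76.4 to 83.7). Rpl39l, best known from the testis, has 874 counts in 45 cells and 3.43 CPM per kilobase, against 25.2 for Rpl39. It is a gene of few cells everywhere: among the 12 groups it reaches its highest share of cells, 24.5%, in young MSC-L. The annotated pseudogene Rps4l has 35.1 CPM per kilobase, above the 19.6 of its X-linked source gene Rps4x, but it has counts in 261 cells where Rps4x has them in 568. With 14.9% of its windows shared against 72.2% for Rps4x, and 35.1 against 32.9 CPM per kilobase of the principal transcript, this order cannot be read as abundance either. Rps3a1 and its pseudogene Rps3a2 stand at 62.2 and 0.128 CPM per kilobase, and Rpl3 and Rpl10 at 24.3 and 13.0.

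Across the young populations the summed share of the family is lowest in MSC-L, 0.332% of nuclear gene counts (0.329 to 0.334). It is 0.533% (0.529 to 0.536) in mOPr, 0.569% (0.566 to 0.571) in MSC-S and 0.569% (0.567 to 0.572) in OPr. The endothelial groups are higher, with 0.630% (0.626 to 0.633) in SEC and 0.674% (0.671 to 0.677) in AEC. Every SEC is in library-number range 3, which holds no mesenchymal cell. Young AEC have 0.577% in that range, whereas young MSC-S have 0.636% in range 1. Single young MSC-L cells run from 0.112 to 0.620% with a median of 0.292%, while young MSC-S cells run from 0.258 to 1.38% with a median of 0.551%, so the ranges overlap and the medians lie apart. The ratio of large-subunit to small-subunit counts over the 12 groups runs from 0.993 in young SEC to 1.33 in old MSC-L and young mOPr.

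**Figure D2:**
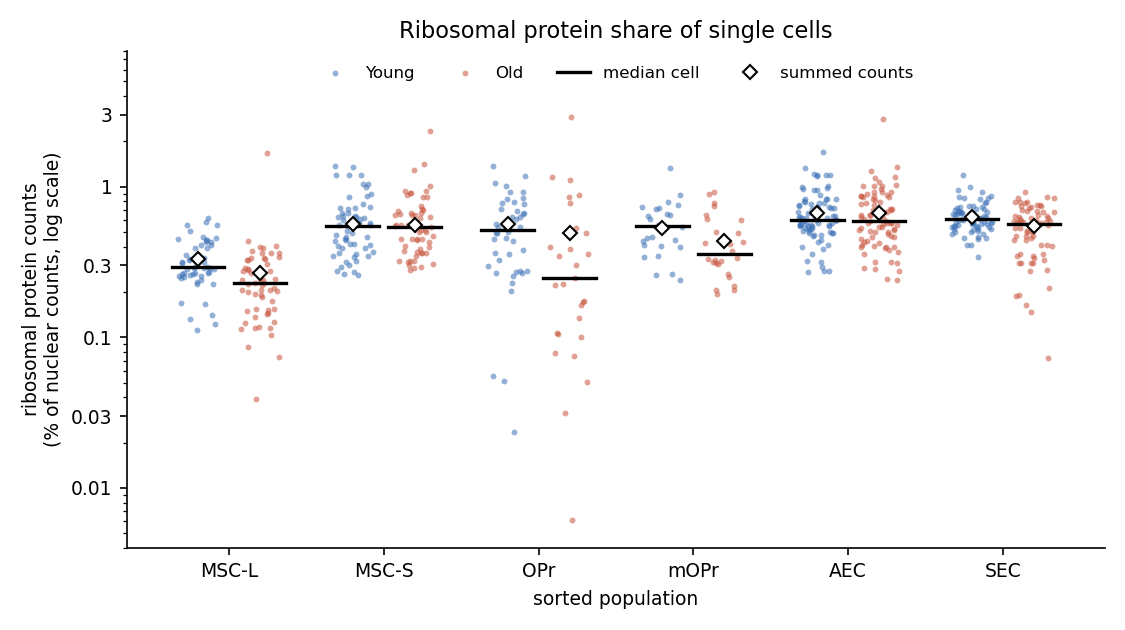
Percent of nuclear gene counts in the 88 ribosomal protein genes, on a log scale, in each cell of the 6 sorted populations at both ages, with the median cell and the value from summed counts.

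The step between the central and the endosteal stromal populations runs through most of the family. In young MSC-L over young MSC-S the log2 ratio of the sum is -0.78 (-0.79 to -0.77), a fold of 0.583. Of the 58 members with at least 10 CPM on average over both sides and counts in at least 5 cells, 34 (58.6%) are lower in MSC-L by a fold of 1.5 or more, against 20.8% of the 9788 features compared by the same rule. Higher by that fold are 4 members, against 40.8% of features. The median log2 ratio, computed after adding 1 CPM to each side, is -0.73 over the members and 0.33 over all features compared. Rpl15, a large-subunit protein, has counts in 12 of 53 MSC-L cells and 39 of 59 MSC-S cells, at 6.23 and 32.1 CPM, a log2 ratio of -2.20. The stalk follows the sum, with log2 ratios of -1.45 for Rplp0, -1.04 for Rplp1 and -0.71 for Rplp2. Against this direction stand the 4 higher members: Rpl22l1 at 2.32, Rpl12 at 2.32, Rps4l at 2.22 and Rpl7l1 at 0.96 on the log2 scale. Rpl12, which sits at the base of the stalk, has 24.8 CPM in MSC-L, but 37.5% of these counts are in 1 cell.

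Between young OPr and MSC-S the summed counts give nearly equal shares. Young OPr over young MSC-S gives a log2 ratio of 0.0019 (-0.0075 to 0.011), which is -0.13 when each cell weighs the same, -0.097 when cells are thinned to 100000 counts and 0.25 with median-of-ratios size factors. Higher in OPr by the fold are 7 of 59 members, against 25.8% of the 9412 features compared, and lower is 1, against 26.2%. The median log2 ratio of the members is 0.07. Rpl22l1 again stands out with 34.1 CPM in OPr and 7.15 CPM in MSC-S, a log2 ratio of 2.11, and is detected in 34 of 44 and 40 of 59 cells. Rps10, a small-subunit protein that is tagged with ubiquitin when ribosomes collide, has 17.6 and 7.29 CPM, a log2 ratio of 1.17, with counts in 35 and 45 cells.

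Endothelial cells are compared within library-number range 3, which holds every SEC, with 70 young SEC and 24 young AEC. The log2 ratio of the sum, SEC over AEC, is 0.13 (0.11 to 0.14), and it is 0.037 with median-of-ratios size factors, -0.0022 without the 5 members with most counts and -0.098 against AEC of all ranges. Of 61 members compared, 4 are higher in SEC by the fold, against 29.4% of the 9470 features, and 10 are lower, against 28.9%. The median log2 ratio of the members is 0.13, beside 0.0079 over all features. Mesenchymal markers differ as well, with 7 of 10 compared higher and 2 lower in SEC and a median of 2.95. The list sums to 7202 CPM in young SEC and 3352 CPM in young AEC of all ranges, both led by Cxcl12, 12 of the 70 SEC carry at least 7 of its genes at 10 CPM, and its part in the ratio was not tested. Rpsa, a small-subunit protein also known as the laminin receptor, has 16.5 CPM in SEC and 6.65 CPM in AEC, with counts in 61 of 70 and 14 of 24 cells and a log2 ratio of 1.20. Rpl10, which joins the large subunit late in its maturation, has 20.2 and 8.35 CPM, a log2 ratio of 1.18, whereas AEC of all ranges have 31.2 CPM, above SEC. Rpl11, which with Rpl5 and the 5S RNA can bind Mdm2 and so stabilize p53, has 3.42 CPM in SEC and 25.97 CPM in AEC, a log2 ratio of -2.61, with 39.3% of the AEC counts in 1 cell.

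Over the 60 members compared across all 6 young populations, the spread between the highest and the lowest population has a median of 1.18 on the log2 scale and runs from 0.46 to 2.73. MSC-L is the lowest population for 46 of the 60, SEC for 6, mOPr for 5, MSC-S for 2, OPr for 1 and AEC for 0. The highest population is AEC for 24 members, SEC for 12, OPr for 10, MSC-S for 7, MSC-L for 5 and mOPr for 2. These ranks take AEC of all ranges, whereas within range 3 the summed share is higher in SEC, 0.630 against 0.577%. The ranks were not counted over all features, so how far they are particular to the family is not known. The widest spreads belong to Rpl12, Rpl15 and Rpl9, each detected in a minority of cells in several groups. Rpl9 illustrates this with 48.7 CPM in young mOPr, where 13 of 26 cells have counts and 1 of them holds 69.9%, and 7.47 CPM in young OPr.

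With age the family share is lower in old than in young cells of MSC-L, mOPr, OPr and SEC and nearly equal in MSC-S and AEC, where median-of-ratios size factors give log2 ratios of 0.079 and 0.23. Only for MSC-L, mOPr and SEC, among the 6 populations, does the direction of the sum hold in every alternative computation that could be run. All SEC are in library-number range 3, so no alternative by range exists for SEC. In that range alone the log2 ratio of the AEC sum is -0.40, beside 0.17 in range 1 and 0.018 in range 2. Ratios of single members vary over the alternatives, some of them in sign. The single-gene log2 ratios below are computed after adding 1 CPM to each side, and their intervals without it.

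**Figure D3:**
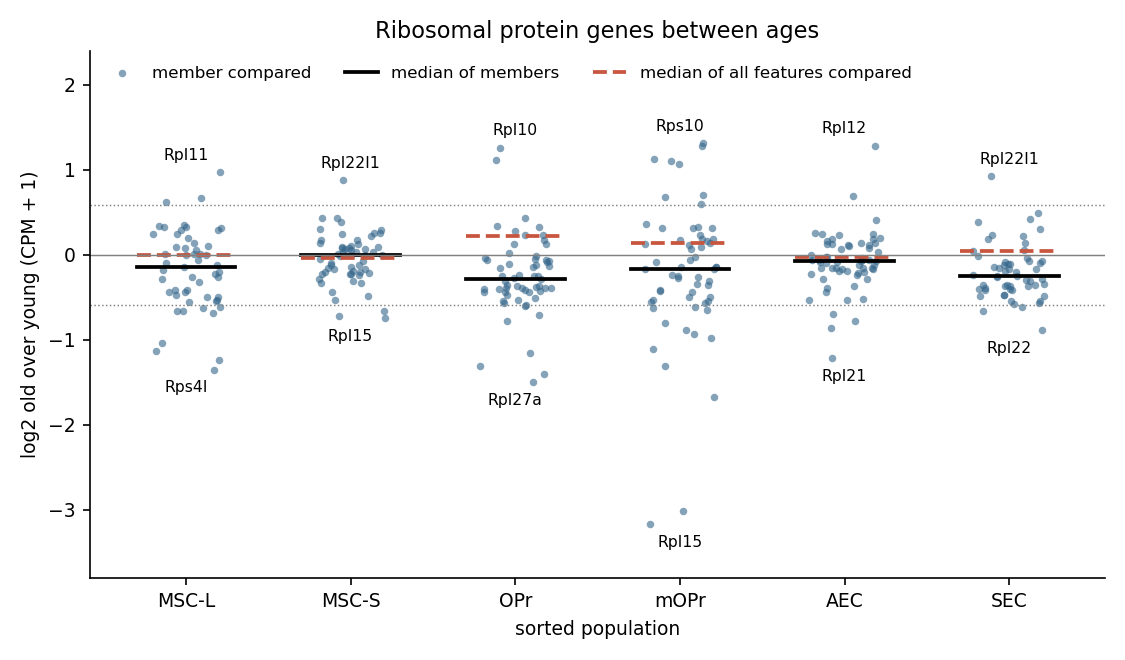
Log2 ratio, old over young, of each member compared in each of the 6 sorted populations, with the median over these members and the median over all features compared.

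In MSC-L the share is 0.332% in young and 0.269% (0.266 to 0.271) in old cells, a log2 ratio of -0.30 (-0.32 to -0.29). Old cells run from 0.0387 to 1.67% with a median of 0.228%, so they extend past the young range at both ends. Of 53 members compared, 3 are higher in old by the fold, against 21.6% of the 9907 features compared, and 9 are lower, against 19.9%. The members' median of -0.14 lies beside 0.0032 for all features, and 32 of the 53 are below 0. With median-of-ratios size factors 17 members are lower by the fold, against 23.7% of features. In range 1 alone 19 are lower, against 27.02%, and in range 2 alone 11, against 25.5%. The lowest ratios are those of Rps4l, -1.35 (-1.53 to -1.24), Rpl7l1, -1.24 (-1.40 to -1.14), and Rpl12, -1.13 (-1.44 to -0.97). These 3 are among the 5 members with their highest young level in MSC-L, but that level also enters the ratio, so no conclusion is drawn from the overlap. Rps4l goes from 66.4 to 25.4 CPM, with counts in 27 of 53 young and 18 of 58 old cells. The highest ratios are those of Rpl11, 0.97 (0.78 to 1.38), Rpl39l, 0.66 (0.45 to 1.02), and Rpl9, 0.63 (0.45 to 0.86). Of the 8 hematopoietic markers compared in MSC-L, 7 are higher in old cells by the fold, with a median of 2.88, Srgn (4.41) and Laptm5 (4.82) being highest, and their part in the lower old share was not tested. The high ratios of members rest on few cells: Rpl11 has counts in 14 young and 19 old cells, and 51.7% of the old counts are in 1 of them. Each of the 3 has the opposite sign in a single range, Rpl11 with -1.29 in range 2, and Rpl39l with -0.73 and Rpl9 with -0.62 in range 1.

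In MSC-S the share is 0.569% in young and 0.556% (0.554 to 0.559) in old cells, a log2 ratio of -0.03 (-0.04 to -0.02), which becomes 0.0081 when each cell weighs the same and 0.079 with median-of-ratios size factors. Of 57 members, 1 is higher by the fold, against 13.6% of the 8963 features compared, and 3 are lower, against 16.7%. Single cells run from 0.258 to 1.38% in young and from 0.281 to 2.33% in old, with medians of 0.551 and 0.542%. The member higher by the fold is Rpl22l1, with 7.15 CPM in young and 14.0 CPM in old cells, a log2 ratio of 0.88 (0.75 to 1.19), detected in 40 and 46 of 59 cells. Rpl27a at 0.44 and Rpl23, another protein that can bind Mdm2, at 0.43 come next. Rpl23 is detected in 57 young and 59 old cells, at 52.6 and 71.01 CPM. At the low end are Rpl15 at -0.75 (-0.91 to -0.64), Rpl9 at -0.72 (-1.01 to -0.58) and Rpl21 at -0.67 (-0.91 to -0.53), all of the large subunit. The osteoprogenitor markers sum to 3241 CPM in young and 1375 CPM in old MSC-S, both led by Col1a1, with 4 of 6 compared lower by the fold. Sorted MSC-S of MSC-S identity have 0.555% in 50 young and 0.531% in 53 old cells, and those of OPr identity 0.679% in 9 young and 1.11% in 6 old cells. The part of markers and identities in the near-equal sums was not tested.

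In OPr the share is 0.569% in young and 0.492% (0.489 to 0.495) in old cells, a log2 ratio of -0.21 (-0.22 to -0.20). Of 59 members, 2 are higher by the fold, against 37.7% of the 9879 features compared, and 8 are lower, against 23.8%. The median over members is -0.28 where that over all features is 0.22, and 47 of 59 are below 0. With median-of-ratios size factors the sum is -0.82 and 37 members are lower, against 28.96% of features. In range 1 alone 44 are lower, against 38.4%, and in range 2 alone 6, against 23.9%. The spread over cells is wide: young cells lie between 0.0236 and 1.37% around a median of 0.519%, old cells between 0.00615 and 2.90% around 0.247%. The 9 old OPr cells with hematopoietic markers have a share of 0.241%, and without them the remaining 20 cells stand at 0.578% with a median cell of 0.374%, which brings the log2 ratio of the sum to 0.021 and the members' median to -0.085. Without the cell of each age with the highest share, the log2 ratio of the sum is -0.46. Within range 1 the old share is 0.305% (10 cells), and within range 2 it is 0.619% (19 cells), beside young shares of 0.595 and 0.5495%. The OPr value thus depends on which cells are counted.

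Among single members in OPr, Rpl27a has 26.8 CPM in young and 8.84 CPM in old cells, a log2 ratio of -1.50 (-1.84 to -1.37). Rpl35a, a gene mutated in the inherited red cell failure, has 15.0 and 5.05 CPM, a log2 ratio of -1.40 (-1.88 to -1.26), and Rpl15 follows at -1.30 (-1.56 to -1.18). These 3 encode large-subunit proteins. Rpl10 is the highest at 1.26 (1.15 to 1.44), with 21.6 CPM in young and 52.9 CPM in old cells and counts in 30 of 44 and 20 of 29, though it runs from 0.23 in range 1 to 2.77 in range 2. Rpl9 at 1.11 rests on 6 old cells, and 86.8% of its old counts are in 1 of them, and Rpl30 at 0.43, with counts in 17 old and 35 young cells, has the opposite sign in range 2 alone.

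In mOPr the share is 0.533% in young and 0.434% (0.430 to 0.437) in old cells, a log2 ratio of -0.30 (-0.31 to -0.28). Of 59 members, 8 are higher by the fold, against 35.4% of the 9406 features compared, and 12 are lower, against 26.9%. The median of the members is -0.17, which is 0.0099 with median-of-ratios size factors, and that of all features is 0.14. Young cells run from 0.241 to 1.34% and old cells from 0.195 to 0.920%, with medians of 0.549 and 0.357%. Rpl15 has the lowest ratio, -3.17 (-3.91 to -3.04), with 43.3 CPM and counts in 16 of 26 young cells and 3.93 CPM and counts in 6 of 26 old cells. Rpl9 at -3.02 (-3.64 to -2.88) and Rpl27a at -1.67 (-2.06 to -1.48) follow, but 69.9% of the young Rpl9 counts are in 1 cell, and in range 1 alone these ratios are -0.97 and -0.76. At the high end stand small-subunit genes: Rps10 at 1.31 (1.08 to 1.84), Rps27a at 1.28 (1.06 to 1.68) and Rps27 at 1.13 (0.88 to 1.62). Each of these 3 is detected in at most 14 of the 26 old cells, 60.8% of the old Rps10 counts are in 1 cell, the ratio is 0.33 without the cell of each age with most counts, and Rps27a is -1.70 in range 2 alone.

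In AEC the share is 0.674% in young and 0.670% (0.668 to 0.673) in old cells, a log2 ratio of -0.0075 (-0.016 to 0.00079), which becomes 0.23 with median-of-ratios size factors. Of 61 members, 2 are higher by the fold, against 15% of the 9431 features compared, and 4 are lower, against 17.2%. Single cells run from 0.274 to 1.71% in young and from 0.239 to 2.82% in old, with medians of 0.603 and 0.592%. The pooled value covers ranges that differ. The young and old shares are 0.805 and 0.905% in range 1, 0.636 and 0.644% in range 2, and 0.577 and 0.436% in range 3. Rpl12 is highest at 1.28 (1.19 to 1.56), with 9.50 CPM in young and 24.6 CPM in old cells, and 39.8% of the old counts in 1 of the 29 cells that have any, and it is -2.28 in range 3 alone. Rps27l follows at 0.70 (0.60 to 0.83), with 29.3 and 48.1 CPM and counts in 53 of 84 and 60 of 82 cells, and the stalk gene Rplp2 at 0.41 (0.33 to 0.50). Rpl21 at -1.21 (-1.52 to -1.11), Rpl10 at -0.87 (-1.05 to -0.76) and Rpl35a at -0.78 (-0.99 to -0.66) are lowest. Rpl35a has counts in 72 young and 65 old cells, but its ratio is -0.021 in range 1, -1.16 in range 2 and -0.095 in range 3. Markers differ between the ages as well. The SEC markers sum to 2867 CPM in young and 1793 CPM in old AEC, both led by Il6st, with 5 of 8 lower by the fold, a median of -1.45 and Stab2 (-4.40) lowest. The mesenchymal markers sum to 3352 and 3789 CPM, both led by Cxcl12, with 5 of 10 compared higher and 3 lower and a median of 0.55. Their part in the AEC values was not tested.

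In SEC the share is 0.630% in young and 0.545% (0.542 to 0.549) in old cells, a log2 ratio of -0.21 (-0.22 to -0.20), with all cells from range 3. Of 56 members, 1 is higher by the fold, against 19.6% of the 9614 features compared, and 3 are lower, against 13.5%. Most members differ in the same direction by a small amount: 45 of 56 are below 0, with a median of -0.25 beside 0.04 over all features. Young cells run from 0.342 to 1.20% and old cells from 0.0734 to 0.921%, with medians of 0.607 and 0.566%. Markers differ as well: the 8 SEC markers sum to 20949 CPM in young and 15041 CPM in old SEC, both led by Stab2, and the 8 AEC markers to 315 and 1127 CPM, both led by Ly6a, with none of either list at 0. By the fold, 6 of 6 AEC markers compared are higher in old SEC, with a median of 3.39. Cells of SEC identity are 59 of 70 young and 44 of 71 old SEC, at 0.655 and 0.608%, and 8 old SEC of AEC identity have 0.380%. The hematopoietic markers sum to 417 CPM in young and 792 CPM in old SEC, both led by Srgn, with 3 of 20 at 0 in each, and 5 of 8 compared are higher in old by the fold, with a median of 2.96. The mesenchymal markers sum to 7202 CPM in young and 4695 CPM in old SEC, both led by Cxcl12. Of 12 compared, 3 are higher and 5 lower in old by the fold, with a median of 0.16. At least 7 of these genes reach 10 CPM in 12 young and 6 old SEC. The part of these cells and markers in the lower old share was not tested. Rpl22 has the lowest member ratio, -0.89 (-0.99 to -0.81), with 139 CPM in all 70 young cells and 74.7 CPM in 56 of 71 old cells. Its paralog Rpl22l1 has the highest, 0.92 (0.79 to 1.13), with 19.8 and 38.4 CPM, although 25.1% of the old counts are in 1 cell. The other low members are of the small subunit, Rps15a at -0.66 (-0.83 to -0.53) and Rps20, a further target of collision-linked ubiquitin tagging, at -0.62 (-0.71 to -0.54). Rps20 has counts in 70 young and 67 old cells, at 135 and 87.5 CPM. Rpl27a at 0.49 and Rpl10a, which forms the mobile stalk at the exit site of transfer RNA, at 0.42 are the next highest.

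The old over young ratios of the stalk genes are small in most populations, and several change sign over the alternative computations. Rplp0, which anchors the other 2 to the large subunit, has log2 ratios of 0.20 in MSC-L, -0.20 in MSC-S, -0.54 in OPr, -0.44 in mOPr, -0.20 in AEC and -0.15 in SEC. Rplp1 has 0.06, 0.03, -0.71, 0.19, -0.04 and -0.20 in the same order, and Rplp2 has -0.27, -0.23, -0.39, -0.03, 0.41 and -0.30. All 3 have their lowest values in OPr, though not in each alternative computation: there Rplp0 runs from -2.02 to -0.24 and Rplp2 from -1.02 to -0.11. In MSC-L Rplp0 runs from -0.36 to 0.34, in AEC Rplp0 from -0.32 to 0.32 and Rplp2 from -0.28 to 0.57, and in mOPr Rplp1 from -0.21 to 0.59.

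Rpsa has log2 ratios of -0.54 in MSC-S, -0.25 in OPr, -0.62 in mOPr and -0.41 in SEC, the populations in which it passes the filter on low values, and in OPr it runs from -1.73 to 0.40 over the alternatives. A further group of ribosomal proteins is made as a fusion with ubiquitin or a ubiquitin-like protein. Of these Rps27a is a member and Fau is not, owing to its symbol. Rps27a passes the filter in mOPr, where 57.5% of the old counts are in 1 cell. Fau passes in none of the 6 and has 1.21 in MSC-L, with 4.03 CPM in young and 10.7 CPM in old cells.

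The cluster labels of the study give a finer view of the mesenchymal share. Among the 19 clusters with at least 5 cells the lowest shares are those of M1, 0.294% (86 cells), and M2, 0.339% (50 cells), which carry the MSC-L identity. M15 with 0.366% (17 cells) and M16 with 0.408% (36 cells) come next, although they belong with MSC-S. The other MSC-S clusters are higher: M8 has 0.546%, M7 0.599%, M9 0.636%, M12 0.687% and M6 0.729%. The ages are unevenly spread over them, with 0 old cells in M15 and all 10 cells of M9 old. The MSC-S clusters thus differ widely among themselves, and all lie above M1 and M2. The OPr clusters M5, M3 and M4 have 0.599, 0.696 and 0.759%. Among endothelial clusters E1 and E2 are lowest with 0.448 and 0.456%, E4, E6, E7 and E3 have 0.598, 0.625, 0.642 and 0.689%, and E5 has 0.771%. By summed counts E5 is the highest of the 19, but its median cell, at 0.599%, lies below those of E3, E7, M3, M4, M6 and others.

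**Figure D4:**
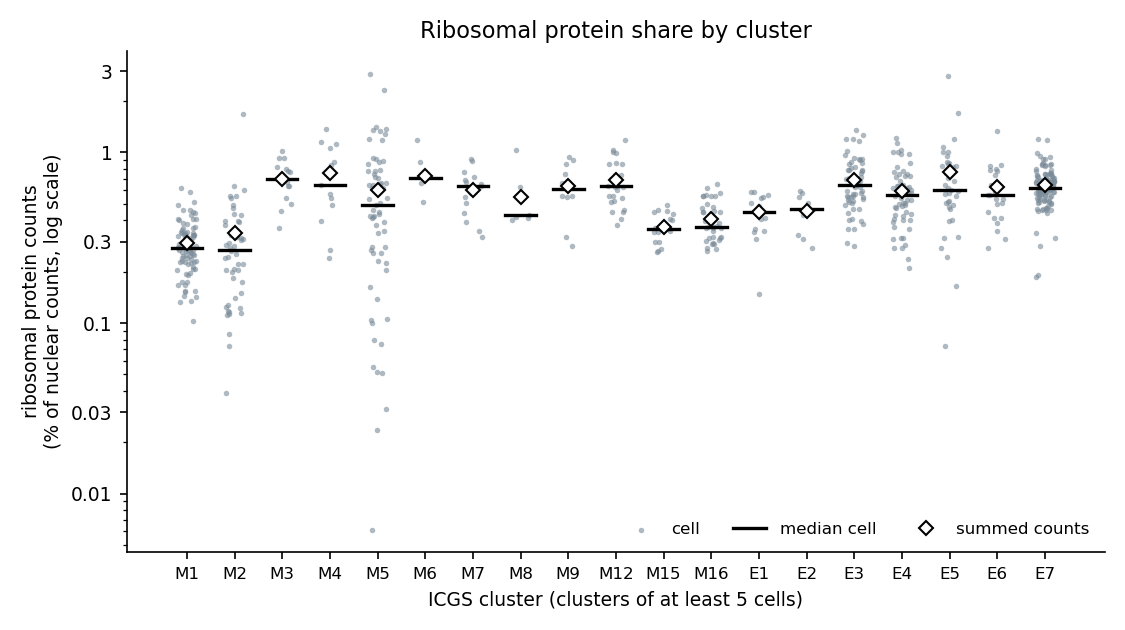
Percent of nuclear gene counts in the 88 ribosomal protein genes, on a log scale, in the cells of each cluster with at least 5 cells, ordered as labeled, with the median cell and the value from summed counts.

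Cells of MSC-L identity within the old osteoprogenitor sorts have shares near those of MSC-L. They make up 34.5% of old and 6.82% of young OPr cells, and 53.8% of old and 7.69% of young mOPr cells. In old OPr the 10 such cells have 0.318% (0.315 to 0.322), and the 19 cells of OPr identity have 0.635% (0.630 to 0.639), beside 0.648% in the 36 young ones. Their median cells are lower and farther apart, 0.226% in old and 0.591% in young, and the old sum includes a cell at 2.90%. The 9 old OPr cells with hematopoietic markers are among these 19. In old mOPr the 14 cells of MSC-L identity have 0.292% (0.288 to 0.296), and the 12 of OPr identity 0.591% (0.585 to 0.597), beside 0.650% in 8 young ones. Most young mOPr cells, 16 of 26, have the MSC-S identity, with 0.473% (0.468 to 0.477), which no old mOPr cell has, so the young and old mOPr cells differ in identity. When cells are grouped by identity in place of sort, the log2 ratio, old over young, is 0.019 for OPr-like, 0.035 for MSC-S-like, -0.023 for AEC-like, -0.13 for SEC-like and -0.23 for MSC-L-like cells. The part of the MSC-L markers and of the hematopoietic markers in the lower old shares was not tested.

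From cell to cell within a group the members vary together. For the 25 members with a mean of at least 50 CPM, the rank correlation with the summed level of the other members, averaged over the 12 groups, has a median of 0.51. For 4238 other genes at that level the median correlation with the sum is 0.0022. The summed large-subunit genes correlate with the summed small-subunit genes at 0.73 on average, from 0.54 to 0.87 over the groups. The sum itself has a mean correlation of 0.04 with the depth of a cell and -0.07 with its number of detected genes. The lowest of the 25 is Rpl7l1 at 0.09. Cells of a group share their sort, but only SEC come from a single library-number range, and groups such as old OPr mix cluster identities. The part of these differences in the correlations was not tested, and the correlations are given without a test.

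The non-member genes most like the sum are largely copies of members. The 10 highest are Gm5835 (0.64), Gm5805 (0.64), Gm15427 (0.61), Gm4149 (0.60), Eef1a1 (0.58), Rpl14-ps1 (0.57), Tpt1-ps3 (0.50), Rpl3-ps1 (0.50) and 2 clone-named entries without an annotation match (0.64 and 0.60). Of these Gm5835, Gm5805, Gm15427, Gm4149, Rpl14-ps1 and Rpl3-ps1 are annotated processed pseudogenes that hold windows of a member transcript. Gm5835 holds 16.5% of the windows of Rpl4, and Rpl3-ps1 holds 81.5% of those of Rpl3. Eef1a1, the factor that brings transfer RNA to the ribosome, is the highest gene annotated as protein coding. The 28 translation genes at that level have a median of 0.11, the 12 ribosome biogenesis genes 0.08 and the 2 ribosome-associated genes, Gnb2l1 and Tpt1, 0.38.

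Lists of related genes show how far the age values of the family extend to its partners. Of the translation initiation and elongation genes, 35 are compared in each population. In MSC-L 7 are higher and 7 lower by the fold, near the 21.6 and 19.9% of all features, with a median of -0.23 that lies below that of the members; the ends are Eif3m (-1.25) and Eif4b (-1.18), then Eif3a (0.83) and Larp1 (0.97). The median of this list is -0.02 in MSC-S, with 2 higher and 1 lower, against 13.6 and 16.7% of all features. It is -0.06 in OPr (2 and 5, against 37.7 and 23.8%) and -0.10 in mOPr (6 and 8, against 35.4 and 26.9%). In AEC it is -0.03 (1 and 4, against 15 and 17.2%) and in SEC -0.11 (0 and 2, against 19.6 and 13.5%). In young MSC-L over MSC-S it is -0.24 with 2 higher and 12 lower, against 40.8 and 20.8% of all features. Its lowest genes there are the elongation factors Eef2 (-1.52) and Eef1a1 (-1.51). The members' median lies below that of these partners in OPr, mOPr, AEC and SEC, and above it in MSC-L and MSC-S. With median-of-ratios size factors for both, it lies below in OPr and SEC only, with -0.80 against -0.20 and -0.26 against -0.09, and above in the others, with 0.0099 against -0.09 in mOPr and 0.25 against 0.07 in AEC.

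Ribosome biogenesis genes, which act in the nucleolus before the proteins are in place, have counts past the fold that are to be read against the percents of all features given above. In MSC-L 11 of 41 are higher and 7 lower, with a median of -0.04, and in MSC-S 6 and 2 with 0.07. In OPr 6 of 42 are higher and 14 lower with a median of -0.25, from Polr1e (-3.16) and Heatr1 (-2.16) to Utp18 (1.63) and Pes1 (2.04). In mOPr the counts are 12 and 15 of 40 with -0.05, in AEC 7 and 6 of 41 with 0.22, and in SEC 8 and 11 of 45 with -0.01. Young MSC-L over MSC-S has 19 of 41 lower and 6 higher, with a median of -0.48, and the growth regulator Myc (-3.89) is lowest. The ribosome-associated and fused genes have medians of -0.05 in MSC-L, -0.10 in MSC-S, -0.22 in OPr, -0.18 in mOPr, -0.09 in AEC and -0.28 in SEC, over 4 to 6 genes compared. In young MSC-L over MSC-S their median is -1.37 over 5 genes, with Tpt1 (-1.56), a gene with the same pyrimidine-rich start, lowest.

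Genes of ribosome quality control and stress have medians of -0.07 in MSC-L, -0.02 in MSC-S, -0.16 in OPr, 0.32 in mOPr, -0.05 in AEC and -0.38 in SEC. In SEC 3 of 16 are higher and 3 lower, against 19.6 and 13.5% of all features. The ends are Eif2ak3 (-1.57) and Eif2ak4 (1.14), kinases that slow initiation under stress. Proliferation genes, which mark cells with a high demand for ribosomes, are higher by the fold for 7 of 11 compared in MSC-L, against 21.6% of all features, with a median of 1.76, and for 8 of 13 in OPr, against 37.7%, with 0.90. Their median is -0.49 in MSC-S (4 higher and 4 lower of 9, against 13.6 and 16.7%) and 0.81 in mOPr (3 and 1 of 5, against 35.4 and 26.9%). It is 0.23 in AEC (2 and 3 of 8, against 15 and 17.2%) and 0.39 in SEC (3 and 0 of 9, against 19.6 and 13.5%). The nuclear retained RNAs, among them Malat1 and Neat1, have medians of 0.69 in MSC-L, -0.37 in MSC-S, -0.90 in OPr, -0.06 in mOPr, -0.10 in AEC and 0.76 in SEC. By the fold 3 of 4 compared are higher in MSC-L, against 21.6% of all features, and 2 of 4 in SEC, against 19.6%. In OPr 3 of 5 are lower, against 23.8%, and 1 is higher, against 37.7%. The part of these RNAs in the ribosomal protein share was not tested.

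A pyrimidine-rich start was searched in the RefSeq promoter sequences (GRCm38.p6), which hold 63 of the 88 members. In the 30 bases from 15 before the transcription start to the first 15 transcribed, on the transcribed strand only, a run of at least 8 bases that are each C or T was found for 27 of the 63 genes (42.9%) and for 3760 of all 27025 genes (13.9%). A C at the start followed by 4 bases that are each C or T was found for 13 (20.6%) and for 813 (3.01%). The longest run has a median of 7 bases in members and 5 in all genes. The windows below are those of genes named above, shown so that long and short runs can be compared; capitals mark the longest run of C and T. Rpl15 (chr14:18270972-18271001, minus strand) and Rpl27a (chr7:109519180-109519209, plus) belong to the members with low old values in mOPr and OPr. Rpl27a is higher in old MSC-S (0.44) and SEC (0.49). Rpl9, also low in old mOPr (-3.02), has a longest run of 4 bases and is not shown. Rpl35a (chr16:33056467-33056496, plus), Rps10 (chr17:27635230-27635259, minus), Rps15a (chr7:118116133-118116162, minus) and Rplp2 (chr7:141447636-141447665, plus) have the C and 4 pyrimidines at the start, as does Rpl15. Rpl4 (chr9:64173372-64173401, plus) is among the most abundant. Rpl22l1 (chr3:28805493-28805522, plus), Rpl22 (chr4:152324421-152324450, plus) and Rpl7l1 (chr17:46782642-46782671, minus) are paralogs or partners of paralogs, with longest runs of 10, 5 and 2 bases. In Rpl4, Rps15a, Rpl22 and Rpl7l1 the capitals lie before the start. Rpl35a has 3 entries, of which only the one shown has the C and 4 pyrimidines. Rpl22 has a further entry (chr4:152325711-152325740), nearer to the annotated start of the gene at 152325742, with a longest run of 4 bases.
Rpl15: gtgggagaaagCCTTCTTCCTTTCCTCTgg
Rpl27a: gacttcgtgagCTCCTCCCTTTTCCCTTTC
Rpl35a: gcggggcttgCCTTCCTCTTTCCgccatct
Rps10: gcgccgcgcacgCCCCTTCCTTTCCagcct
Rps15a: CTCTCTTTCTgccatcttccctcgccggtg
Rplp2: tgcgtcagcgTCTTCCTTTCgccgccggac
Rpl4: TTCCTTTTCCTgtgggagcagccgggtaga
Rpl22l1: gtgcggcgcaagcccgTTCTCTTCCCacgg
Rpl22: cgctgCTTCTggaatgttccagctcccact
Rpl7l1: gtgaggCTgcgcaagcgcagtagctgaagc
A match is a description of the letters in the window. Rpl8 has no entry.

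The family thus has a low share in MSC-L at both ages, a spread across mesenchymal clusters that the sorted populations only partly show, and old shares that are lower in MSC-L, mOPr and SEC. Rpl22l1, Rpl12, Rps4l and Rpl7l1 are higher in young MSC-L than in MSC-S, against the sum, and Rpl22 and Rpl22l1 differ in opposite directions with age in SEC. By summed counts Rpl22 and Rpl22l1 also do so in mOPr, whereas both are lower in old MSC-L, OPr and AEC and higher in old MSC-S.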

How the data were processed

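Smart-Seq2-type libraries of single sorted cells were read as the raw gene counts that the authors deposited, made by aligning reads with GSNAP 2015-09-29 to GRCm38.p4, keeping reads with a single location, and counting with HTSeq against Ensembl 81. All 661 cells and their deposited cluster labels were used, and 0% of the columns were left out. Mitochondrial entries were set aside, and CPM were computed from counts summed over the cells of a group with Python 3.11.15, numpy 2.4.6, pandas 2.3.3 and scipy 1.17.1. Features were compared at a mean of at least 10 CPM and counts in at least 5 cells, with a pseudocount of 1 CPM and a fold of 1.5. Intervals are exact Poisson for levels, Clopper-Pearson for shares and conditional binomial for ratios. Shared windows and lengths come from GENCODE M21 on GRCm38, a later annotation than Ensembl 81. The scripts were tested on simulated data. The members and lists were chosen with earlier results of these data known. Named are the 5 highest and lowest members per kilobase, the 3 highest and lowest old over young ratios of each population, the 3 widest spreads over young populations, paralog pairs, stalk and fusion genes, Rpsa, the 10 most similar non-members and the ends of lists. Some results under this rule are not reported here. Alternatives changed the weighting of cells, the scaling, depth, library-number range, cells kept, treatment of pseudogene counts, pseudocount, filter and fold.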

Additional observations from a re-analysis of the deposited data

Results flagged for a closer look

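For 6 members the old over young log2 ratio has opposite signs in different sorted populations with a size past the fold in both. These are 9.84% of the 61 members compared in at least 2 populations, against 41.3% of the 11023 features so compared. Rpl10 is 1.26 in OPr, where library-number range 1 alone gives 0.23, and -0.87 in AEC. Rpl12 is 1.28 in AEC and -1.13 in MSC-L, and Rpl9 is 1.11 in OPr and -3.02 in mOPr. Both are detected in a minority of cells of several groups, and these signs depend on the cells counted: Rpl9 in OPr is -0.49 without the cell of each age with its most counts and -2.74 in library-number range 1, and Rpl12 in AEC is -2.28 in range 3. Rps10 is 1.31 in mOPr and -1.15 in OPr, but 60.8% of its old mOPr counts are in 1 cell, and the mOPr value is 0.33 without the cell of each age with its most counts. Rps27l is 0.70 in AEC and -1.04 in MSC-L, and Rps4l is 1.10 in mOPr and -1.35 in MSC-L. The difference between populations was not tested for any of them.

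The pseudogene entries named after members hold 0.0677% of nuclear gene counts and are outside the set. They were used as an alternative, by adding their counts to those of the member, and were not described further.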

How the results depend on the processing

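Each value below is the one that an alternative computation gives in place of the value in the report. Values of the sum and the median are log2 ratios, old over young, and counts are members higher or lower in old cells by the fold, to be read against the percent of all features past the fold under the same alternative. The direction of the sum is the same as in the report in all 11 alternatives for MSC-L, all 10 for mOPr and all 10 for SEC, in 8 of 11 for OPr, 6 of 11 for MSC-S and 8 of 13 for AEC. None of those for SEC is by library-number range, because all SEC are in range 3. The cause of these differences was not tested.

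With the mean over cells of each cell's CPM, the sum is -0.33 in MSC-L, 0.0081 in MSC-S, -0.30 in OPr, -0.35 in mOPr and -0.26 in SEC. In OPr 13 members are then lower, against 23.9% of features, and in SEC 2 are higher, against 19.4%. Young MSC-L over MSC-S gives -0.89 and young OPr over MSC-S -0.13.

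With median-of-ratios size factors from genes outside the family, the sum is -0.38 in MSC-L, 0.079 in MSC-S, -0.82 in OPr, -0.22 in mOPr, 0.23 in AEC and -0.25 in SEC. The median is 0.11 in MSC-S, -0.80 in OPr and 0.25 in AEC. Higher are 6 members in MSC-L, 4 in MSC-S and 10 in AEC, against 26.99, 17.4 and 17.99% of features, and lower are 17 in MSC-L, 37 in OPr and 2 in AEC, against 23.7, 28.96 and 17.6%. The young pairs give -0.97 for MSC-L over MSC-S, 0.25 for OPr over MSC-S and 0.037 for SEC over AEC. Over all features with a mean of at least 10 CPM, here without the condition on the number of cells, this scaling shifts the median from 0.23 to 0.18 in OPr and from 0.15 to 0.04 in mOPr.

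With cells thinned to 100000 counts, which leaves out 7 cells, the sum is -0.34 in MSC-L, 0.0061 in MSC-S, -0.24 in OPr, -0.36 in mOPr and -0.26 in SEC. Lower are 1 member in MSC-S and 6 in SEC, against 17.7 and 14.6% of features, and higher are 1 in AEC and 2 in SEC, against 15.6 and 20.3%. The pairs give -0.87, -0.097 and 0.15 in the order above.

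Library-number range 1 alone gives sums of -0.32 in MSC-L, 0.029 in MSC-S, -0.97 in OPr, -0.32 in mOPr and 0.17 in AEC. The median is -0.42 in MSC-L, -0.99 in OPr and 0.21 in AEC. Higher are 7 members in MSC-L, 3 in MSC-S, 1 in OPr and 9 in AEC, against 27.9, 25.3, 34.7 and 25.9% of features, and lower are 19, 5, 44 and 7, against 27.02, 28.3, 38.4 and 32.4%. Young MSC-L over MSC-S is -0.93 and OPr over MSC-S -0.096. Signs opposite to pooled values past the fold appear for Fau (-0.13), Rpl39l (-0.73) and Rpl9 (-0.62) in MSC-L and for Rpl9 in OPr (-2.74).

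Range 2 alone gives sums of -0.019 in MSC-S, 0.17 in OPr, -0.24 in mOPr and 0.018 in AEC, and a median of 0.037 in OPr. Higher are 1 member in MSC-L and 8 in OPr, against 26.3 and 42.99% of features. The pairs are -0.68 for MSC-L over MSC-S and 0.047 for OPr over MSC-S. Among members past the fold in the report, opposite signs appear for Rpl11 in MSC-L (-1.29) and Rps27a in mOPr (-1.70). Rpl30 in OPr, below the fold there, is -0.66. Range 3 alone gives AEC a sum of -0.40 and a median of -0.33, with 1 member higher and 21 lower, against 26.8 and 28.95% of features, and Rpl12 in AEC is -2.28 there.

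With pseudogene counts added to their members the sum is -0.29 in MSC-L, -0.27 in mOPr and 0.0042 in AEC, and 1 member is higher in OPr, against 37.6% of features. The pairs are -0.76 for MSC-L over MSC-S and 0.15 for SEC over AEC. Without the cells that carry hematopoietic markers the OPr sum is 0.021 and its median -0.085, with 5 members higher, against 40.1% of features, and in SEC 2 members are higher, against 19.3%. Without endothelial cells that carry mesenchymal markers the sum is -0.023 in AEC and -0.23 in SEC. With the identity group in place of the sort, which has none for mOPr, the sum is -0.23 for MSC-L, 0.035 for MSC-S, 0.019 for OPr, -0.023 for AEC and -0.13 for SEC.

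With no filter on low values the members higher in old are 7 in MSC-L, 3 in MSC-S, 6 in OPr, 14 in mOPr, 8 in AEC and 4 in SEC, against 20.2, 12.3, 25.1, 27.5, 12.6 and 17.6% of features, and those lower are 8 in MSC-S, 14 in OPr, 21 in mOPr and 6 in SEC, against 15.9, 22.6, 24.8 and 11.9%. With a fold of 2 the members higher are 0 in MSC-L, 0 in MSC-S, 5 in mOPr, 1 in AEC and 0 in SEC, against 10.2, 5.25, 24.6, 6.03 and 9.52% of features, and those lower are 4 in MSC-L, 0 in MSC-S, 4 in OPr, 5 in mOPr, 1 in AEC and 0 in SEC, against 9.02, 6.82, 15.6, 17.9, 7.48 and 5.19%. Scaling by spike-in counts was planned and not run, because the table has no spike-in entries.

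The following alternatives were chosen after the data had been seen. Without the 5 members with most counts the sum is -0.24 in MSC-L, -0.25 in OPr, -0.23 in mOPr and -0.26 in SEC, and the pairs are -0.55, 0.099 and -0.0022. Without the cell of each age with the highest share the sum is -0.41 in MSC-L, -0.04 in MSC-S, -0.46 in OPr and -0.025 in AEC, the median in OPr is -0.55, 1 member is higher and 14 are lower in MSC-L, against 21.3 and 20.7% of features, and 25 are lower in OPr, against 26.3%. Without the 18S ribosomal RNA entry the sum is -0.29 in MSC-L, -0.045 in MSC-S, -0.27 in OPr and -0.22 in SEC, 2 members are higher in SEC, against 19.2% of features, and the pairs are -0.80 for MSC-L over MSC-S and 0.048 for OPr over MSC-S. Against AEC of all ranges, SEC over AEC is -0.098. Without the cell of each age with most counts of the gene, Rpl9 in OPr is -0.49. Per kilobase of the principal transcript, the rank correlation of level with shared windows is -0.30.

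The main limit is that the mouse of a cell is unknown, so differences between ages cannot be told apart from differences between mice or library preparations. SEC come from a single library-number range. Members with many processed copies can be undercounted to a degree that was not measured, and the windows were searched in annotated transcripts and not in the whole genome. Counts carry no molecule tags, so amplification is part of each value, and members detected in few cells rest on few molecules. Shares are relative to all nuclear gene counts and say nothing of the amount of ribosomal protein or of translation.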
